A study of Mus musculus with 7 samples.

Results

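The genes described here encode the nuclear part of the mitochondrial respiratory chain and the ATP synthase, measured in mouse splenic cells enriched for natural killer (NK) cells and cultured with or without interleukin 2 (IL2). A gene was included when a probe with a single gene symbol carried a symbol starting with Nduf, Uqcr, Atp5, Cox4i, Cox5, Cox6, Cox7 or Cox8, or the symbol Sdha, Sdhb, Sdhc, Sdhd, Cyc1 or Cycs. This gave 91 of the 19752 genes measured, on 118 of 21425 such probes. They were 34 subunits of complex I, 7 complex I assembly factors of the Ndufaf series, 4 subunits of complex II, 9 of complex III, 19 genes of complex IV, 17 of the ATP synthase, and Cycs, which encodes cytochrome c.

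The tested cells were kept for 8 h in IL2 (250 U/ml, 4 arrays, replicates 1 to 4), and the comparison cells for 8 h without cytokine (3 arrays, replicates 2 to 4). Spleens of male C57BL/6 mice, 6 weeks old, supplied both groups. The labels give no other allele or agent. Enrichment used EasySep negative selection, which tags the unwanted cell types and takes them out. Each RNA sample was hybridised to its own Affymetrix Mouse Gene 1.0 ST array. Whether replicates are different mice or repeat cultures is not in the labels, and the p-values cover only how far these samples varied, which may be technical. Levels are log2 intensities, and differences are IL2 minus untreated on that scale, tested with limma over all genes with Benjamini-Hochberg adjustment. The granzyme gene Gzmb (difference 5.07) and the interferon-gamma gene Ifng (3.47), known to be induced by IL2 in NK cells, were both higher in the IL2 arrays.

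The cells were not pure. Markers of NK cells, macrophages and B cells were all read in both groups. The summed intensity of 10 NK cell markers was 22014 to 24571 in the IL2 arrays and 6899 to 10346 in the untreated arrays, with 6 of 10 higher. For 12 macrophage and monocyte markers it was 6146 to 8841 in the IL2 arrays and 17114 to 19323 in the untreated arrays, with 8 of 12 lower and none of them at 0. For 7 B cell markers it was 11816 to 12459 in the IL2 arrays and 13865 to 15544 in the untreated arrays, with 1 of 7 lower. For 7 neutrophil markers it was 1659 to 2600 in the IL2 arrays and 4356 to 5459 in the untreated arrays. Of these 1 was lower by the test, and their median difference was -0.77. Of the 8 T cell, 6 dendritic cell and 3 erythroid markers 0 passed the test, with medians of -0.01, 0.04 and -0.09. Over all genes 2.08% were called higher and 0.901% lower. In such bulk samples fewer cells of a type and less RNA per cell cannot be told apart, and the part of these shifts in the results below was not tested.

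The respiratory chain moves electrons from NADH (complex I) and succinate (complex II) through ubiquinone, complex III and cytochrome c to oxygen (complex IV), and the proton gradient so built drives the ATP synthase. Most subunits are encoded in the nucleus and imported, while a small core is made inside mitochondria from mitochondrial DNA. Resting lymphocytes meet much of their ATP demand by this route, and NK cells given IL2 or interleukin 15 for longer periods are known to raise both glycolysis and respiration.

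After 8 h with IL2, respiratory chain genes lay slightly higher than in untreated cells, and few differences were large against the spread of the arrays. Of 91 genes, 80 had a positive difference (87.9%, against 45.5% of all genes), with a median of 0.22, or 1.17-fold. The median over all 19752 genes was -0.01. By limma 4 genes rose (4.40%, against 2.08% of all genes) and 0 fell (against 0.901% of all genes), while at an unadjusted p under 0.05 there were 26 genes higher (against 8.81% of all genes) and 1 lower (against 4.67% of all genes). Every IL2 array lay above every untreated array for 17 genes (18.7%, against 6.25% of all genes), and below for 1 gene (against 3.38% of all genes). The 4 genes that rose were Ndufaf4, Ndufb7, Ndufs4 and Cox6b1.

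The background depends on signal, since dim probes show small differences. Of the 91 genes, 79 lay at or above the median signal, and all 4 that rose were among them. In that range 4 of 79 genes rose (5.06%), beside 4.0% of all 9876 genes there, so that the share called was near the background. At an unadjusted p under 0.05 there were 26 of 79 higher, beside 16.5% of all genes there. The shift in direction remained visible: 72 of the 79 had a positive difference (91.1%, against 58.2%) with a median of 0.26 (against 0.05), and for 17 of 79 (21.5%, against 11.7%) the IL2 arrays lay wholly above. Among the brightest of 4 equal bins of signal, 63 respiratory chain genes had a median difference of 0.29, beside 0.11 for all 4938 genes of that bin. The 12 respiratory chain genes below the median signal had a median of 0.03, and 0 of them passed the test, with 0 at an unadjusted p under 0.05.

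**Figure D1:**
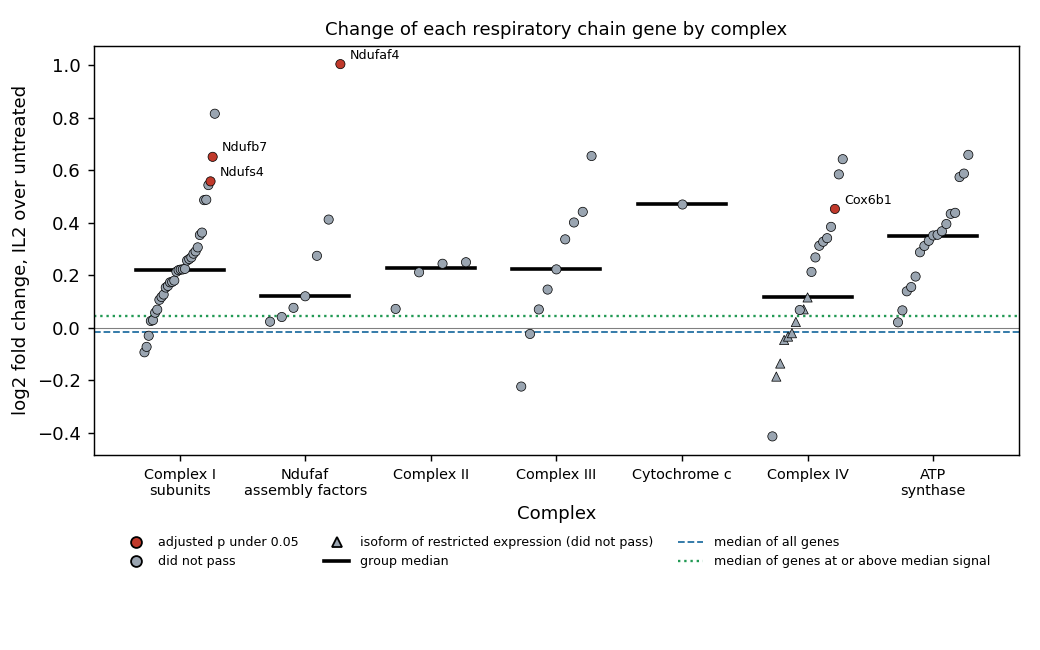
Difference in log2 intensity (IL2 over untreated, vertical axis) of each of the 91 genes, by complex. Each point is a gene, red where the limma adjusted p was under 0.05, triangles are complex IV isoforms of restricted expression, thick bars are group medians, and the dashed and dotted lines are the medians of all genes (-0.01) and of genes at or above the median signal (0.05). Most points lie above both lines, and all 17 ATP synthase genes lie above 0.

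The largest difference was in Ndufaf4, an assembly factor that in human cells works with NDUFAF3 early in the building of complex I. Ndufaf4 (transcript cluster 10503643) read 7.34, 7.45, 7.97 and 7.95 in IL2 replicates 1 to 4, against 6.81, 6.41 and 6.79 in untreated replicates 2 to 4. All IL2 arrays lay above all untreated arrays, and replicates 3 and 4 lay highest. The means were 7.68 ± 0.33 (SD, n = 4) with IL2 and 6.67 ± 0.22 (n = 3) without, a difference of 1.00 (SE 0.19, limma adjusted p = 0.0378). Ndufs4, an accessory subunit of the NADH-oxidising arm whose loss in mice causes a Leigh-like brain disease, had the smallest spread of the 4. It read 10.71, 10.68, 10.83 and 10.70 with IL2, against 10.17, 10.14 and 10.21 in untreated arrays. The gap between the groups was wider than the range within each of them, and the difference was 0.56 (SE 0.07, limma adjusted p = 0.00832).

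Ndufb7, an accessory subunit of the membrane arm of complex I, read 9.003, 9.26, 9.24 and 9.53 with IL2, against 8.62, 8.48 and 8.73 in untreated arrays. IL2 replicate 1 was the lowest of its group and still above every untreated array, and the difference was 0.65 (SE 0.13, limma adjusted p = 0.0442). Cox6b1, a complex IV subunit on the side that meets cytochrome c, read 10.02, 10.17, 10.17 and 10.32 with IL2, against 9.73, 9.65 and 9.77 in untreated arrays, a difference of 0.45 (SE 0.09, limma adjusted p = 0.0414). As in Ndufb7, IL2 replicate 1 was the lowest and replicate 4 the highest of the IL2 arrays. Ndufs4 kept its call whichever of the 7 arrays was dropped (limma adjusted p of 0.0175 to 0.0398). The other 3 genes lost theirs when any 1 array other than IL2 replicate 1 was left out (limma adjusted p of 0.079 to 0.137 for Ndufaf4, 0.0905 to 0.154 for Ndufb7 and 0.0825 to 0.141 for Cox6b1), so that the count of genes that rose was 1 without any of these 6 arrays and 7 without IL2 replicate 1. Calls over all genes moved too, to 2.62% higher without IL2 replicate 1, 2.14% without untreated replicate 2, and 0.678 to 0.901% without any of the other 5 arrays. Sample titles come in 2 styles, since those of replicates 3 and 4 give the time and those of replicates 1 and 2 do not, and with this style as a block the count was 8 (2.93% of all genes). It was 2 with a trended robust variance (2.00% of all genes), which left Ndufs4 and Ndufaf4, and Cox6b1 also missed the threshold after quantile normalization again (limma adjusted p = 0.052). Over only the 4 arrays whose titles give the time, the count of genes that rose was 0 by limma (0.410% of all genes). At an unadjusted p under 0.05 there were 45 higher, but the share of all genes was not counted there, so that 45 has no background. For the other 3 arrays, with 1 untreated array, only sizes are given below.

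**Figure D2:**
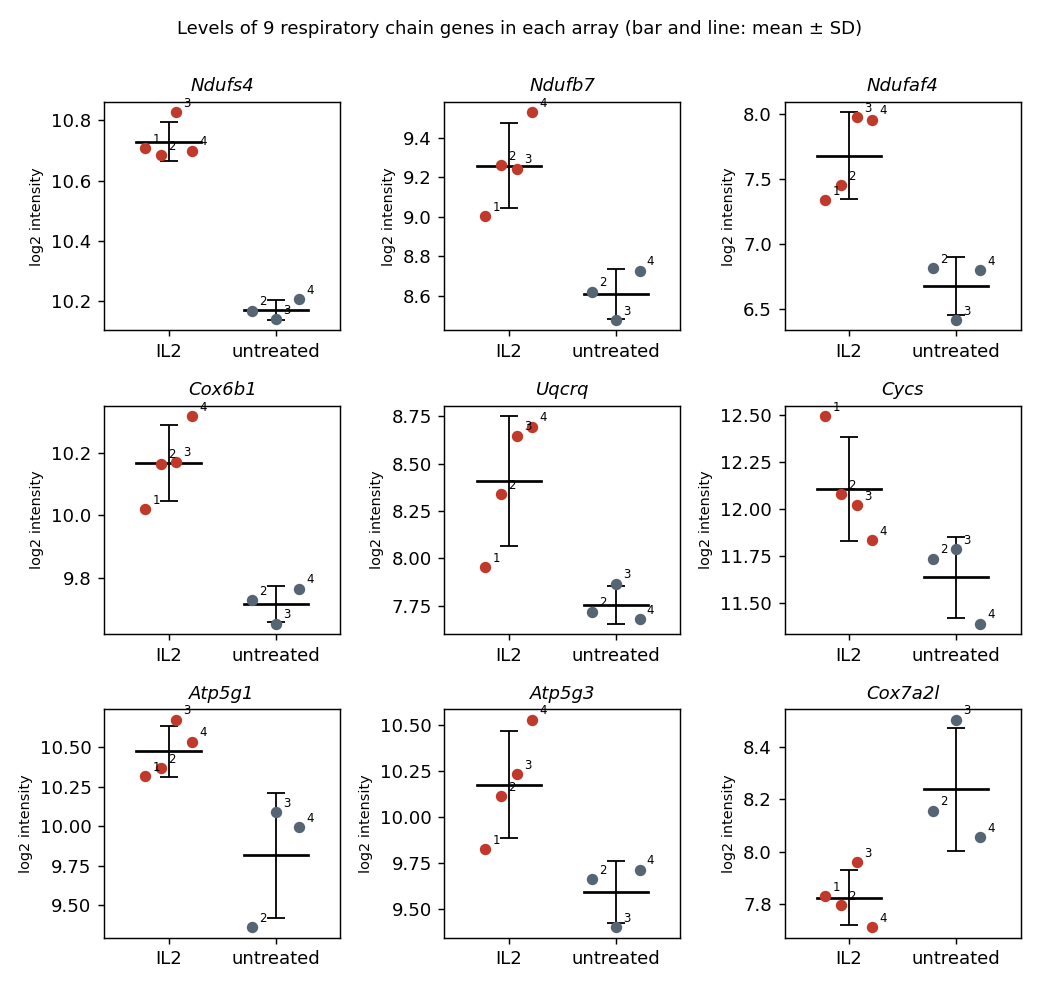
Log2 intensity (vertical axes, each with its own range) of 9 genes in each array, with IL2 on the left and untreated on the right. Points are arrays marked with their replicate number, and lines and bars give the mean ± SD of 4 IL2 and 3 untreated arrays. The groups do not overlap in any of the 9, and Cox7a2l is the one gene that is lower with IL2.

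Promoter sequences of the genes that rose are shown because respiratory chain promoters are known to carry sites for the activators NRF1 and GABP and for YY1. RefSeq windows (GRCm38.p6) of 250 bases before to 50 after the gene start were found for 74 of the 91 genes. They were searched on both strands for the NRF1 core, a palindrome whose letters are the capitals in the Ndufaf4 sequence, the ETS core CCGGAAG that GABP binds, and the YY1 core AAGATGGC. None of the motifs contains another. The 250 bases before the start follow, 5′ to 3′ on the strand of the gene, with matches in capitals (CTTCCGG is the ETS core on the opposite strand). Cox6a1 is added because it holds 2 of the motifs before its start.
Ndufb7, chr8:83566508-83566757, plus strand: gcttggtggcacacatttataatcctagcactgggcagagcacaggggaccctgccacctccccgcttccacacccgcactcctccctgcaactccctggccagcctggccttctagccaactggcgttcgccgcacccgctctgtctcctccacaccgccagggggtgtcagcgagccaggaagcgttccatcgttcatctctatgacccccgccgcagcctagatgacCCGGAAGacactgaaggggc
Ndufaf4, chr4:24897833-24898082, plus strand: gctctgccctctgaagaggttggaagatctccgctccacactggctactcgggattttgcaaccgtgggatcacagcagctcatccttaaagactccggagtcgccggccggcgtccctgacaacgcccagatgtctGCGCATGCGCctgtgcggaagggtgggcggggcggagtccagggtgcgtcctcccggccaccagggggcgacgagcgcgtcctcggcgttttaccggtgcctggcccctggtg
Cox6b1, chr7:30626115-30626364, minus strand: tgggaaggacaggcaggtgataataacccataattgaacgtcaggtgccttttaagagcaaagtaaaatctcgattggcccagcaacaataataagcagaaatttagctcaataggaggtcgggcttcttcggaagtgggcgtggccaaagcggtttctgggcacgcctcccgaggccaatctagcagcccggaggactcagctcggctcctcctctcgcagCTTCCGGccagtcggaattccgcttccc
Cox6a1, chr5:115348959-115349208, minus strand: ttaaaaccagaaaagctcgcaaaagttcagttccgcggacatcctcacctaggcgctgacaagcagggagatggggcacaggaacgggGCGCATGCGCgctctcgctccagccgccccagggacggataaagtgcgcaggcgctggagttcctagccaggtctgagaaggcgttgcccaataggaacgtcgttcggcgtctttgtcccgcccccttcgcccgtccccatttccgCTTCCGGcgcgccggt
Ndufs4, chr13:114388095-114388344, minus strand: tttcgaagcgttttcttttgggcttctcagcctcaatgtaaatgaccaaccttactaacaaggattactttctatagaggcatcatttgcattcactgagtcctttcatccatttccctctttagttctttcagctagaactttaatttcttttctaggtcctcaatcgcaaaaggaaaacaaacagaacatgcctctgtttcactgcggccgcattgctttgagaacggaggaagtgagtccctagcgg
Ndufaf4 thus held the NRF1 core at base -113, Ndufb7 the ETS core at -20, and Cox6b1 the ETS core at -28, counted to the first base of the match. The window of Ndufs4 before the start held none of the 3. Its YY1 core lay after the start, at bases 36 to 43, in the following stretch of 26 bases.
Ndufs4, chr13:114388045-114388070, minus strand: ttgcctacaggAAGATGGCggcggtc

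The NRF1 core was in 7 of the 74 windows (9.46%, against 1.62% of 15483 measured genes with a window), the ETS core in 18 (24.3%, against 13.7%) and the YY1 core in 10 (13.5%, against 3.79%). Genes at or above the median signal held them more often than measured genes as a whole, in 2.43%, 21.0% and 5.66% of 7956 windows. Of the 10 YY1 matches in respiratory chain genes, 8 began 23 to 39 bases after the start on the gene's own strand, while 254 of the 630 matches in measured genes (40.3%) lay after the start on the gene's own strand. Genes with any of the 3 motifs had a median difference of 0.32 over 32 genes, and those with none 0.21. These are descriptions of letters in the windows, and no binding was measured.

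The 34 subunits of complex I, the NADH:ubiquinone oxidoreductase, had a median difference of 0.22, and 31 of them had a positive one. Of these subunits Ndufb7 and Ndufs4 rose and 0 fell. At an unadjusted p under 0.05 there were 9 higher and 0 lower. Beside the counts of this and the other complexes stand the shares of all genes at or above the median signal. There 58.2% were positive, 4.0% were called higher and 16.5% were higher at an unadjusted p under 0.05. The 6 core subunits measured, most of which carry the flavin or iron-sulfur clusters, lay between 0.03 and 0.36 with a median of 0.22. The 28 accessory subunits lay between -0.09 and 0.81 with the same median. Ndufb6, a membrane arm subunit, had the largest difference of the complex at 0.81 (SE 0.23, limma adjusted p = 0.148). It read 9.60, 10.23, 9.81 and 10.05 with IL2, against 9.60, 9.05 and 8.67 in untreated arrays. Its groups overlapped, since IL2 replicate 1 and untreated replicate 2 read the same to 2 decimals, and its untreated SD of 0.47 was above its IL2 SD of 0.27. The lowest differences were in Ndufv3, an accessory subunit of the NADH-oxidising arm (-0.09, SE 0.10), and Ndufb3, of the membrane arm (-0.07, SE 0.08).

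Of the 7 Ndufaf assembly factors, which help build complex I without staying in it, 1 rose (Ndufaf4) and 6 did not pass the test. The median was 0.12, and 4 of the 7 lay below the median signal. Ndufaf1, which acts in assembly of the membrane arm, read 8.30, 8.86, 8.47 and 8.42 with IL2, against 8.57, 7.53 and 8.21 in untreated arrays, a difference of 0.41 (SE 0.24, limma adjusted p = 0.574). Untreated replicate 3 was low, and without it the difference was 0.13. Ndufaf2 (0.02, SE 0.07) and Ndufaf5 (0.04, SE 0.07) had the lowest differences.

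Complex II, the succinate dehydrogenase that is also an enzyme of the TCA cycle, is encoded wholly in the nucleus. Its 4 genes had differences of 0.25 for Sdhc (SE 0.11) and 0.24 for Sdhd (SE 0.13), the membrane anchors, 0.21 for Sdhb, the iron-sulfur subunit (SE 0.15), and 0.07 for Sdha, the flavoprotein (SE 0.21). None passed the test by limma (adjusted p of 0.413 to 0.934, and 0 of 4 at an unadjusted p under 0.05). Sdha read 9.30, 9.75, 9.84 and 10.05 with IL2, against 9.90, 9.28 and 9.82 in untreated arrays, so that the groups overlapped.

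Of the 9 genes of complex III, the cytochrome bc1 complex, 0 passed the test and 7 had a positive difference (median 0.22), with 2 at an unadjusted p under 0.05. Uqcrq, a small subunit near the ubiquinone site, read 7.95, 8.34, 8.65 and 8.70 with IL2, against 7.72, 7.87 and 7.68 in untreated arrays, a difference of 0.65 (SE 0.18, limma adjusted p = 0.13). Its groups did not overlap, and it passed the test with the title style as a block (limma adjusted p = 0.0447) and after quantile normalization again (0.0489). Cyc1, which encodes the catalytic subunit cytochrome c1, had a difference of 0.40 (SE 0.15, limma adjusted p = 0.3) and Uqcr11, a small subunit, 0.44 (SE 0.25, limma adjusted p = 0.551). The lowest were Uqcrh, the hinge protein gene (-0.22, SE 0.19), and Uqcrb (-0.02, SE 0.12). For Uqcrb, which has 3 probes, the dimmer probes did not all share the sign of the one used.

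Cycs, the mobile carrier between complexes III and IV that also triggers apoptosis when released, read 12.49, 12.08, 12.02 and 11.83 with IL2, against 11.73, 11.78 and 11.39 in untreated arrays. The groups did not overlap, but IL2 replicate 4 lay only just above untreated replicate 3. The difference was 0.47 (SE 0.17, limma adjusted p = 0.261). It passed the test when the 3 probes of the gene were averaged (0.61, limma adjusted p = 0.0377). That average gives equal weight to a dim probe with a mean level of 5.84, below the median signal, and the largest difference (0.81). The brighter probes, with means of 11.91 and 11.39, differed by 0.47 and 0.56. Which of the 3 probes reads Cycs itself, and which a related copy elsewhere in the genome, was not tested, so that brightness does not settle it. IL2 replicate 1 was the highest array for Cycs, whereas it was the lowest IL2 array for Ndufb7, Cox6b1 and Uqcrq.

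Complex IV, the cytochrome c oxidase, has subunits used in most tissues and isoforms restricted to some of them. The 11 genes of the first kind had a median difference of 0.33, of which 1 (Cox6b1) rose, 0 fell and 10 had a positive difference. Cox8a, the liver-type subunit found in most tissues, had a small but even difference. It read 10.83, 10.90, 10.86 and 10.97 with IL2, against 10.62, 10.70 and 10.54 in untreated arrays, a difference of 0.27 (SE 0.08, limma adjusted p = 0.145). Cox5a, with a difference of 0.58 (SE 0.27, limma adjusted p = 0.407), read 8.07 in IL2 replicate 1 and 9.33 in replicate 4, so that its IL2 arrays covered a wider range than the groups differed by. Cox4i1, the main isoform of the subunit that senses ATP, read 7.88, 8.44, 8.84 and 9.12 with IL2, against 8.43, 8.60 and 8.48 in untreated arrays. Its IL2 arrays lay on both sides of the untreated arrays, with a difference of 0.07 (SE 0.27, limma adjusted p = 0.953). Ndufa4, which was first assigned to complex I and is now placed with complex IV, differed by 0.64 (SE 0.23, limma adjusted p = 0.258), Cox6a1 by 0.38 (SE 0.17, limma adjusted p = 0.369) and Cox7a2 by 0.21 (SE 0.22).

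Cox7a2l was the gene with the most negative difference of the 91. Its protein, also called SCAF1, joins complexes III and IV into supercomplexes, and C57BL/6 mice are known to carry a shortened form of it. Cox7a2l (transcript cluster 10399677) read 7.83, 7.80, 7.96 and 7.71 with IL2, against 8.16, 8.50 and 8.06 in untreated arrays. Every IL2 array lay below every untreated array. The difference was -0.41 (SE 0.12, limma adjusted p = 0.161), so that it did not pass the test over all genes. A dimmer probe of the same gene (mean level 6.83, below the median signal) had a smaller difference of -0.18. Whether either probe reads a related copy elsewhere in the genome was not tested, so that the size of the difference depends on the probe.

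The 8 complex IV isoforms of restricted or inducible expression had a median difference of -0.03 and a range of -0.19 to 0.12, with 0 called and 0 at an unadjusted p under 0.05. These differences were -0.03 for Cox4i2, the lung and hypoxia isoform, -0.02 for Cox6a2, -0.14 for Cox7a1 and -0.19 for Cox8b, the heart and muscle isoforms, -0.05 for Cox6b2, a testis isoform, and 0.02 for Ndufa4l2, which hypoxia induces. Of the 8, 5 lay below the median signal. All 8 groups of arrays overlapped.

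All 17 ATP synthase genes had a positive difference, with a median of 0.35, but 0 passed the test, with 7 higher at an unadjusted p under 0.05. All 17 lay at or above the median signal, where 58.2% of genes had a positive difference and 16.5% were higher at that p. Medians were 0.33 for the 5 genes of the catalytic F1 head, 0.59 for the 3 genes of the rotating c ring, 0.36 for the 4 of the peripheral stalk and 0.31 for the 5 small membrane subunits. The 3 c ring genes, Atp5g1, Atp5g2 and Atp5g3, are known to encode the same mature protein behind different import signals. Atp5g1 read 10.32, 10.37, 10.67 and 10.53 with IL2, against 9.36, 10.09 and 9.996 in untreated arrays, a difference of 0.66 (SE 0.18, limma adjusted p = 0.138), and passed the test with the title style as a block (limma adjusted p = 0.0173). Atp5g3 read 9.83, 10.11, 10.23 and 10.53 with IL2, against 9.66, 9.40 and 9.71 in untreated arrays, a difference of 0.59 (SE 0.17, limma adjusted p = 0.145). In both genes the groups did not overlap, although untreated replicate 2 was far below the other untreated arrays in Atp5g1. Atp5g2 differed by 0.16 (SE 0.12, limma adjusted p = 0.7), with overlapping groups.

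The lowest differences of the ATP synthase were in Atp5l (0.02, SE 0.10), subunit g, and Atp5c1 (0.07, SE 0.13), the central stalk subunit gamma. Atp5l has 6 probes, and these did not share a sign. Across the 91 genes 18 had more than 1 probe, and Atp5l and Uqcrb (named after their probes were compared) were the 2 in which a dimmer probe had the opposite sign. Related copies elsewhere in the genome can hybridise to probes of small, conserved subunits, and such signal cannot be told apart from that of the gene. Probes shared with a further symbol were not counted. They include 2 probes for Ndufb4 and Ndufb4b, with differences of 0.46 and 0.46, and 3 for Cox7c and Gm12338, with differences of 0.06 to 0.10.

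**Figure D3:**
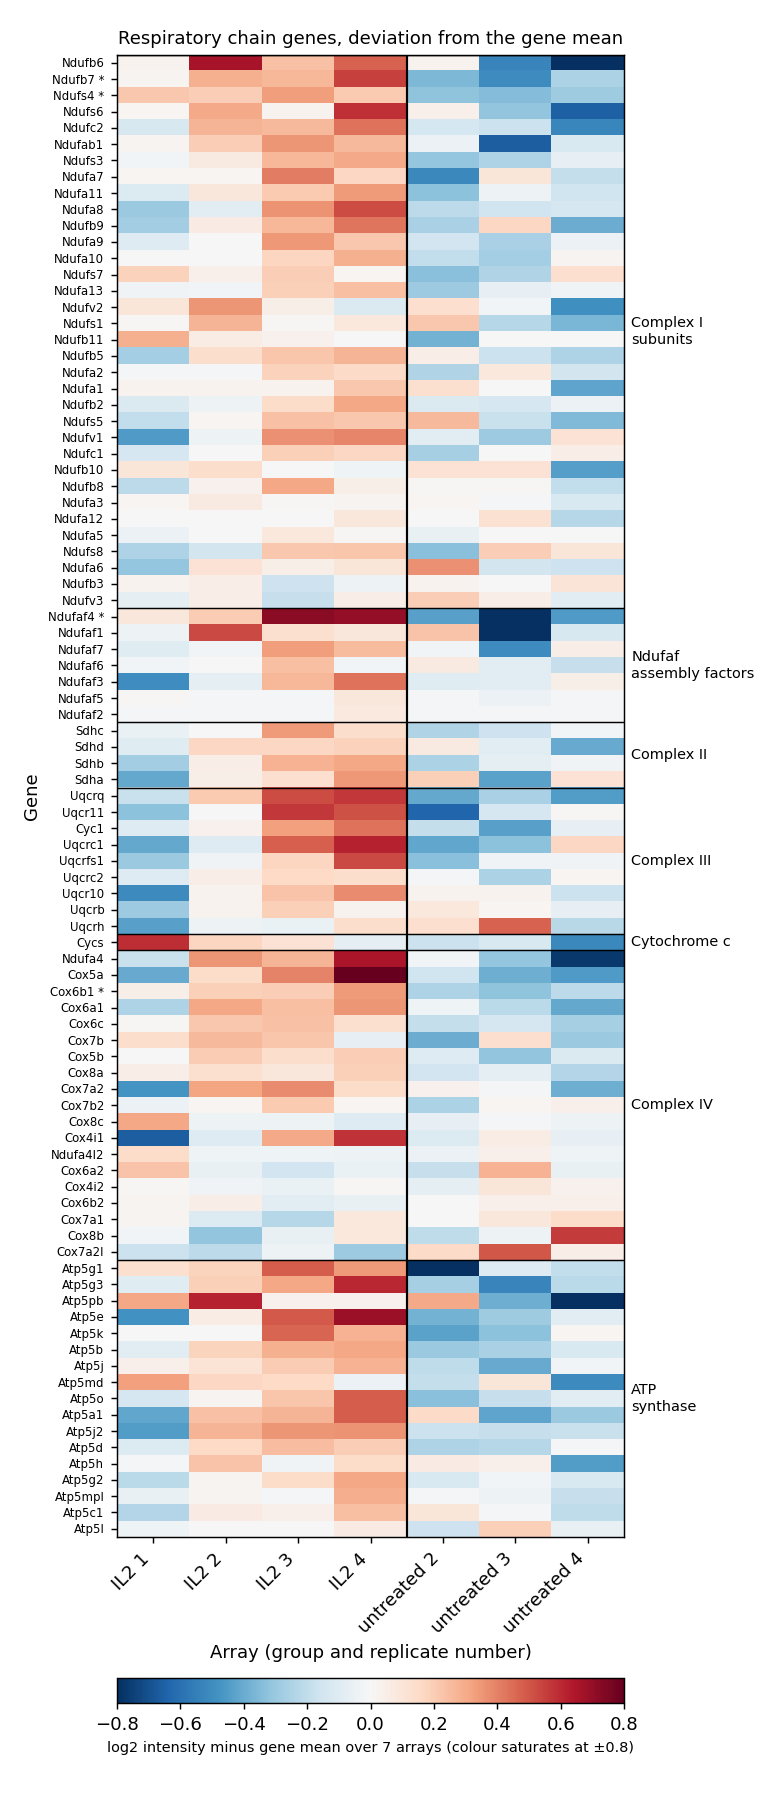
Deviation of the log2 intensity from each gene's mean over 7 arrays (colour, saturating at ±0.8) for the 91 genes (rows, grouped by complex and ordered by difference) in 4 IL2 arrays (left of the line) and 3 untreated arrays (right). Stars mark the 4 genes that passed the test. IL2 replicates 3 and 4 are mostly red, IL2 replicate 1 is mixed, and the untreated arrays are mostly blue.

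In the median level of the 91 genes the IL2 arrays differed among themselves more than the untreated arrays did. Over all genes the median deviation from the gene means did not do so, with -0.02 to 0.02 in the IL2 arrays and -0.03 to 0.05 in the untreated arrays. Genes at or above the median signal did share the wider IL2 range, with -0.09 to 0.11 against -0.12 to 0.01. The median SD per gene over all genes, a different measure, was 0.14 in the IL2 arrays and 0.17 in the untreated arrays. The median deviation of the 91 genes from their own means was -0.05, 0.05, 0.20 and 0.21 in IL2 replicates 1 to 4, against -0.11, -0.09 and -0.12 in untreated replicates 2 to 4. All genes at or above the median signal had deviations of -0.09, 0.00, 0.09 and 0.11 in the same IL2 arrays, against 0.00, -0.12 and 0.01 in the untreated arrays. In IL2 replicates 3 and 4 brighter genes as a whole thus also lay highest, while the other arrays did not keep the same order in both measures. The number of respiratory chain genes above the highest untreated array was 25 in IL2 replicate 1 (27.5%, against 17.2% of genes at or above the median signal), 52 in replicate 2 (57.1%, against 27.2%), 62 in replicate 3 (68.1%, against 43.3%) and 64 in replicate 4 (70.3%, against 45.9%). IL2 replicate 4 was the highest of the 7 arrays for 41 of the 91 genes, and IL2 replicate 1 was the lowest for 17.

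**Figure D4:**
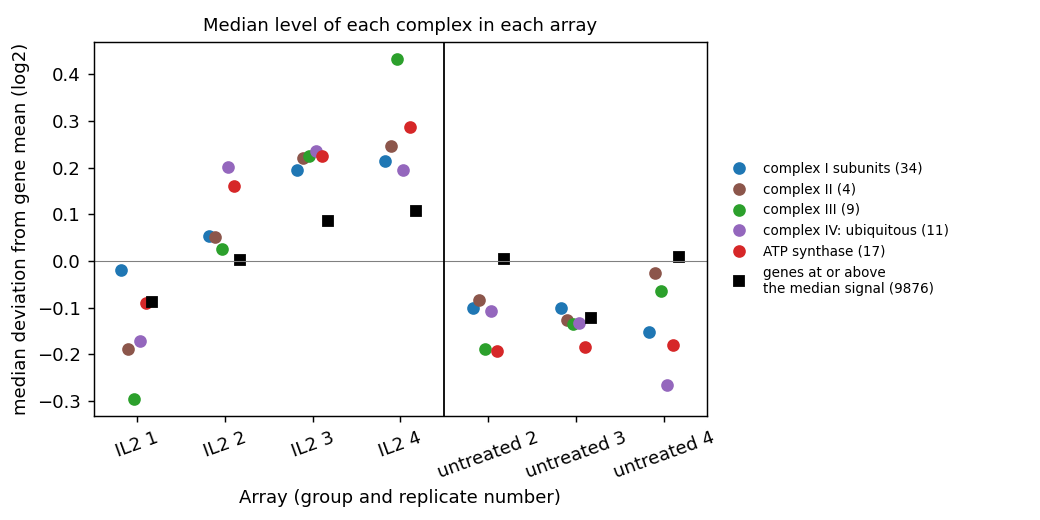
Median deviation from the gene mean (log2, vertical axis) of each complex in each array, with the number of genes in brackets, and black squares for all genes at or above the median signal. IL2 arrays are left of the line. The 5 sets shown, with complex IV limited to its 11 common genes, are each below 0 in IL2 replicate 1 and in the untreated arrays and above 0 in IL2 replicates 2 to 4.

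The title styles gave different sizes. Within the arrays whose titles give the time, 79 of 91 genes had a positive difference with a median of 0.35, and within the others, where 1 untreated array stood against 2 IL2 arrays, 66 had one with a median of 0.11. The ATP synthase had medians of 0.49 and 0.17 in the same order, complex I subunits 0.33 and 0.11, complex II 0.37 and 0.05, and the 11 common complex IV genes 0.44 and 0.11. Macrophage and monocyte markers had medians of -1.34 and -1.70, and NK cell markers 1.43 and 0.96. Quantile normalization again lowered the median of the 91 genes to 0.15, with 72 of them positive.

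Genes that act around the respiratory chain were counted from lists written from general knowledge. Mitochondrial protein import, through which nuclear-encoded subunits reach their place, had a positive difference in 28 of 29 genes, with a median of 0.29, 0 called and 13 higher at an unadjusted p under 0.05. Of 39 assembly factors outside the symbol rule 0 were called, 31 were positive and the median was 0.17. For 12 TCA cycle enzymes the median was 0.18, and for 12 genes of coenzyme Q synthesis it was 0.05, with 0 called in each (2 higher, and 1 higher and 1 lower, at an unadjusted p under 0.05). The share of all genes called was 2.08% for higher and 0.901% for lower. Only 2 genes of mitochondrial DNA were measured on probes with a single symbol, ND3 of complex I and COX2 of complex IV (named after their values were seen). They had negative differences, -0.39 (SE 0.24) and -0.33 (SE 0.22), with limma adjusted p-values of 0.589 and 0.613.

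Of 23 regulators of mitochondrial biogenesis and keepers of mitochondrial DNA, 2 rose, 0 fell and the median was 0.13. Myc, a growth factor-induced transcription factor with many mitochondrial targets, read 10.03, 10.43, 10.79 and 10.65 with IL2, against 8.45, 8.10 and 8.44 in untreated arrays, a difference of 2.14 (SE 0.19, limma adjusted p = 0.00153). Pprc1, a coactivator of NRF1 that growth signals induce, read 7.72, 8.18, 7.99 and 8.23 with IL2, against 7.36, 6.79 and 7.26 in untreated arrays. It rose by 0.89 (SE 0.17, limma adjusted p = 0.04), but not when any array except IL2 replicate 1 was dropped (limma adjusted p of 0.0559 to 0.143) or with the title style as a block (0.0503). Its relatives Ppargc1a (0.29, SE 0.11, limma adjusted p = 0.301) and Ppargc1b (-0.01, SE 0.10) did not pass, and both lay below the median signal. Nor did Nrf1 (0.09, SE 0.16), Gabpa, which encodes the DNA-binding part of GABP (0.14, SE 0.16), or Tfam, the transcription factor of mitochondrial DNA (0.03, SE 0.26), with limma adjusted p-values of 0.791 to 0.984.

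Of 12 nucleotide carriers, uncoupling proteins and other donors of electrons to ubiquinone, 1 rose and 1 fell (median 0.06). Etfb, a subunit of the flavoprotein that carries electrons from fatty acid oxidation, read 9.20, 9.48, 9.54 and 9.55 with IL2, against 8.91, 8.89 and 8.97 in untreated arrays, and rose by 0.52 (SE 0.10, limma adjusted p = 0.0423). The call of Etfb ended without any 1 array other than IL2 replicate 1 (limma adjusted p of 0.0941 to 0.149), and with a trended robust variance (0.0711). Sqor, which passes electrons from sulfide to ubiquinone, read 6.63, 6.49, 6.99 and 6.96 with IL2, against 8.18, 7.91 and 8.30 in untreated arrays. Its log2 level fell by 1.36 (limma SE 0.15, adjusted p = 0.00474), beside a median of -1.56 for macrophage and monocyte markers in the same arrays, and it kept its call with each array left out.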

How the data were processed

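Gene expression was measured on 7 Affymetrix Mouse Gene 1.0 ST arrays, 4 IL2 and 3 untreated, grouped by the sample labels. The deposited values were intensity per transcript cluster on a linear scale, made by the authors; the submitters' processing notes name RMA and Affymetrix Power Tools. Their versions and settings are not given in the sources used here, nor which arrays were normalized together. Values were brought to log2 with no offset. Of 24922 probes 21425 had 1 symbol in the platform annotation, and the one with the highest mean was kept per gene, giving 19752 genes with no filter on signal. Arrays carry no counts, so that their number limits the precision. On 24 of the 91 respiratory chain genes at least 2 arrays of a group held the same deposited number to every digit given, which lowers the measured spread. IL2 was tested against untreated with limma 3.58.1 under R 4.3.3 (lmFit, eBayes, Benjamini-Hochberg, threshold 0.05). On simulated data with these group sizes and 19752 genes the fit recovered 75% of genes changed by 1 on the log2 scale and 99% of those changed by 2, and 5.43% of its calls were false. The noise was normal and independent between genes, and the changed genes were drawn from all genes. Both sizes are above the median difference of the 91 genes (0.22), and recovery of changes that small was not simulated.

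The members and the lists were chosen with earlier results of these data known. Named genes were those called, the 2 highest and 2 lowest of each complex, fixed isoforms and regulators, and the called genes of each list, at most 3. Alternatives were the replicate number and the title style as blocks, a filter at the median signal, quantile normalization again, centring on array medians, trended and robust eBayes, array weights, the mean of all probes, and leaving out each array. Fits within each title style were chosen after seeing the data. Promoter windows came from RefSeq, GRCm38.p6, and motifs were matched exactly. Python 3.11.15 and matplotlib 3.10.9 drew the summaries. Some genes of the complexes were not analysed here.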

Additional observations from a re-analysis of the deposited data

Results flagged for a closer look

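In 5 of 49 named genes 1 of the 4 IL2 arrays stood apart, the gap to its nearest neighbour taking up more of the group's range than Dixon's critical value. Chance flags about 1 in 20 groups. In Ndufs4 this was IL2 replicate 3, the highest array (10.83, against 10.71 for the next), with a share of 0.841. In Sdhd it was IL2 replicate 1, the lowest (8.73), with 0.931. In Ndufaf2, where the other 3 IL2 arrays held equal values, it was replicate 4 (6.38, against 6.28), with a share of 1. In Ndufa4l2 it was replicate 1, the highest, with 0.967, and in Ppargc1a replicate 3 (6.94), with 0.868.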

How the results depend on the processing

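The count of respiratory chain genes that rose was 4. It was 7 with the replicate block (2.80% of all genes called higher), 8 with the title style as a block (2.93%), 2 with trended and robust eBayes (2.00%), and 1 to 7 with each array left out (0.678 to 2.62%), beside 2.08% of all genes in the fit reported. No untreated array has number 1, so the replicate block takes IL2 replicate 1 out of the comparison. Its differences are those found without that array, and the 2 settings are not separate checks of size. With the replicate block Atp5g3 (limma adjusted p = 0.043), Uqcrq, Uqcr11 and Atp5e passed the test and Cox6b1 did not (limma adjusted p = 0.0533). The count that rose was 0 over only the 4 arrays with the time in their titles (limma). At an unadjusted p under 0.05 it was 45 there, with no share of all genes counted beside it. The count that fell was 0 by limma under every setting run, with 0 or 1 at an unadjusted p under 0.05. Whether the replicate numbers pair the samples is not in the labels. Deviations of same-numbered arrays from their group means correlated at 0.46, -0.30 and 0.31 for numbers 2, 3 and 4. These values cannot decide it, since the arrays are few and deviations within a group sum to 0. In 2 of these 3 pairs, numbers 2 and 4, both arrays correlated best with each other.

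The median difference of all 91 genes was 0.35 over arrays with the time in their titles and 0.11 over the others, and 0.18 to 0.30 with each array left out. For complex I subunits these values were 0.33, 0.11 and 0.17 to 0.25, and for the ATP synthase 0.49, 0.17 and 0.26 to 0.45. Complex II had 0.052 over arrays with no time in their titles, and 0.16 to 0.31 with each array left out. The Ndufaf factors had 0.25 with the replicate block, 0.41 for the brighter genes only, 0.37 and 0.00 over arrays with and without a time in the title, and 0.057 to 0.25 with each array left out. Complex IV had 0.29 with the replicate block, 0.29 for the brighter genes only, and 0.059 to 0.29 with each array left out. Complex III had 0.12 to 0.35 with each array left out.

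Some genes that had not passed the test changed sign under some settings. After quantile normalization again the difference was -0.060 for Atp5c1, -0.091 for Atp5l, -0.059 for Cox4i1, 0.0093 for Cox6b2, -0.017 for Nrf1, 0.033 for Ppargc1b and -0.058 for Sdha. With centred arrays it was 0.0086 for Cox6a2, 0.022 for Ppargc1b and 0.0058 for Uqcrb, with array weights -0.019 for Atp5l, -0.014 for Ndufa4l2 and 0.033 for Uqcrb, and with the replicate block -0.024 for Ndufa4l2 and 0.071 for Uqcrb. Over arrays with the time in their titles it was -0.031 for Atp5l, -0.042 for Ndufa4l2 and 0.13 for Uqcrb. Over the others it was -0.18 for Atp5c1, -0.27 for Cox4i1, 0.068 for Cox4i2, 0.27 for Cox6a2, 0.038 for Cox6b2, -0.12 for Cox7a2, 0.033 for Cox8b, -0.22 for Gabpa, 0.014 for Ndufb3, -0.19 for Nrf1, 0.17 for Ppargc1b, -0.37 for Sdha, -0.036 for Sdhd and -0.68 for Tfam. With each array left out the ranges were -0.015 to 0.15 for Atp5c1, -0.056 to 0.12 for Atp5l, -0.12 to 0.30 for Cox4i1, -0.081 to 0.0055 for Cox4i2, -0.12 to 0.11 for Cox6a2, -0.34 to 0.043 for Cox8b, -0.00096 to 0.24 for Gabpa, -0.024 to 0.051 for Ndufa4l2, -0.023 to 0.21 for Nrf1, -0.075 to 0.071 for Ppargc1b, -0.12 to 0.22 for Sdha, -0.15 to 0.30 for Tfam and -0.091 to 0.071 for Uqcrb. The cause of these changes was not tested.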
